A study of Mus musculus with 45 samples.

Results

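Intraflagellar transport moves cargo along the primary cilium, and the genes for its motors, its trains and the BBSome that rides on them were examined in mouse kidney cells that had lost the motor subunit gene Kif3a. The set held 37 genes, listed by name as known parts or partners of these complexes, out of 55401 genes in the count tables. They were 5 kinesin-2 genes, 4 dynein-2 genes, 13 IFT-B genes, 7 IFT-A genes and 8 BBSome genes. Counted with IFT-A is Tulp3, a partner that links it to membrane receptors. Counted with the BBSome is Arl6, which recruits the BBSome to membranes. All 37 passed the filter on low counts in both sexes. Among protein-coding genes, 15991 passed it in males and 15968 in females.

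Kinesin-2 carries trains of IFT-A and IFT-B from the base of the cilium to its tip, and dynein-2 carries them back. IFT-B is the larger complex and is needed to build the cilium, IFT-A works with dynein-2 and brings membrane receptors in, and the BBSome is an adaptor that takes receptors out. KIF3A pairs with KIF3B, or with KIF3C, and the pair binds its cargo through the kinesin-associated protein encoded by Kifap3, so that kidney tubule cells without Kif3a lose their cilia. The question was whether ribosome-bound mRNA for the rest of this machinery differs in level once Kif3a is gone.

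Ribosomes were pulled down from kidneys of 45 mice by TRAP (translating ribosome affinity purification), which captures mRNAs bound to a tagged ribosomal protein, here L10a-EGFP, and sequences them. Every mouse was hemizygous for R26Rpl10a, Pax8rtTA and TetOCre, received doxycycline from postnatal day 28 to 42 and was studied at 7 weeks (postnatal day 49), so Cre and the tag were switched on only where the Pax8 promoter is active, in tubule epithelium. The noncystic mice were Pkd1fl/+ (8 males, 7 females), the Pkd1KO mice were Pkd1fl/fl (7 males, 8 females), and the Pkd1KO+ciliaKO mice were Pkd1fl/fl; Kif3afl/fl (9 males, 6 females). The noncystic mice also carried 1 floxed Pkd1 allele, and no group lacked Kif3a alone, so each Kif3a comparison was made with Pkd1 deleted as well. In bulk samples fewer cells of a type and less RNA per cell cannot be told apart. All samples are pulldowns, so the amount of an mRNA and the rate of its translation cannot be told apart either.

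Libraries held 80874556 to 132958186 fragments on genes. Levels are given as CPM (counts relative to library size), scaled over all 45 mice by the trimmed mean of M-values, and comparisons between genes use the deposited TPM, which accounts for gene length. In females, 2 libraries went against their labels for Kif3a (values below). The counts of called members and some single-gene results in females are given with and without them. Female values given once include all libraries as labelled. In males, the 4 libraries nearest to the females on the first principal component (noncystic replicate 3, Pkd1KO replicate 4, Pkd1KO+ciliaKO replicates 6 and 8) were also left out in an alternative. Pkd1KO+ciliaKO replicates 6 and 8 scored -26.11 and -27.05 there, among the females. Their 6 male-biased proximal tubule markers summed to 223 and 228 CPM. The median of that sum was 2972, 3069 and 1703 CPM in noncystic, Pkd1KO and Pkd1KO+ciliaKO males. What this difference adds to the male results was not tested. The proximal tubule markers fixed for the check, 10 genes including Lrp2 and Slc34a1, were all detected, and their summed level ran from 8271 to 18064 CPM over the mice. Markers of cells outside the tubule were detected too. In noncystic males and females the summed medians were 357 and 496 CPM for 6 fibroblast markers. They were 135 and 106 CPM for 6 endothelial, 88.4 and 70.5 CPM for 6 macrophage and 69.7 and 78.0 CPM for 5 podocyte markers. What such cells add to the members' levels was not tested. Pkd1, the other floxed gene, had medians of 49.3, 36.6 and 42.3 CPM in noncystic, Pkd1KO and Pkd1KO+ciliaKO males and 51.5, 40.1 and 54.0 CPM in females, and none of these differences passed the test. Cre removes exons 2 to 4 of Pkd1, and counts over the whole gene include the exons that stay, so they do not check that deletion.

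Besides Kif3a, the members that differed between Pkd1KO+ciliaKO and Pkd1KO mice were Kif17, Ift27, Ift46 and Ift22. The bases in front of 3 of them are shown here because factors of the RFX family are known to act on ciliary genes through a promoter element called the X-box, and these stretches show which members carry its letters. Each is the 250 bases before the RefSeq start on GRCm38.p6, with matches to an X-box half-site (GTTGCC) or to a relaxed full X-box (GTNNCC, then any 2 bases, then GGNAAC) in capitals. Both strands were searched.

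Kif17 (chr4:138262001-138262250, + strand): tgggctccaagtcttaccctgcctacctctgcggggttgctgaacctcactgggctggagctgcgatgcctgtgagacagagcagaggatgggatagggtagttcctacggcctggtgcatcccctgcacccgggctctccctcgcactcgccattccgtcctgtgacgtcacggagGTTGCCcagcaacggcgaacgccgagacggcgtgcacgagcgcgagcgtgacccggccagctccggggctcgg
Ift27 (chr15:78174082-78174331, - strand): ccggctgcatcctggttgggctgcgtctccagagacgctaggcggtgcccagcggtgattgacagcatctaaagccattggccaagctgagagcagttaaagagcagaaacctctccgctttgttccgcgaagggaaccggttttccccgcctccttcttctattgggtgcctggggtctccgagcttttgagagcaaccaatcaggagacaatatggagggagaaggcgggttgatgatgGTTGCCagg
Ift22 (chr5:136907900-136908149, + strand): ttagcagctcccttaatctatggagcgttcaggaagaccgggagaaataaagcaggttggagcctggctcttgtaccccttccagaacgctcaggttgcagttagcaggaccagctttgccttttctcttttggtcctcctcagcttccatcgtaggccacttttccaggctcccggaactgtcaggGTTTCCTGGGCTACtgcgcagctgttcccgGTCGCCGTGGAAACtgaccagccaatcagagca

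The half-site of Kif17 began 73 bases before the start and that of Ift27 began 9 bases before it, while Ift22 held 2 relaxed matches. The Kif17 gene as counted begins at base 138250435, so this window lies inside it and before a later RefSeq start only. The Ift27 gene as counted reaches base 78174107, so its half-site lies in bases annotated as exon. GTTGCC was found in 8 of the 33 members with a promoter in the table (Kif3a, Kif3c, Kif17, Ift27, Ift57, Traf3ip1, Ift140 and Bbs7) and in 11.8% of 27025 genes. The relaxed full X-box was found in 3 of 33 (Ift22, Ift57 and Bbs7) and in 1.24% of all genes. Ift46 did not hold the half-site. Of the other strings, CCAAT was in 19 of 33 members (37.5% of all genes), GGGCGG in 17 (35.4%) and CTTCCGG in 4 (7.83%). The 8 longer strings among the 13 searched, most of them stricter X-box forms that overlap those above, were each in at most 3 of 33 members and in 0.133% to 2.12% of all genes. These letters are a description of the windows and were not tested as binding sites.

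Per length, most of the machinery was present at moderate levels in the ribosome-bound mRNA of every group. In noncystic males the 37 genes had a median of 19.0 TPM (mean over mice), beside 11.4 TPM over all tested protein-coding genes. In noncystic females the medians were 19.8 and 12.7 TPM. Ift20, an IFT-B subunit also found at the Golgi, was highest (86.2 TPM in noncystic males, 93.4 TPM in noncystic females), and Kif17, which forms a motor of its own separate from KIF3, was lowest (0.343 and 0.634 TPM). Among the kinesin-2 genes Kif3b led at 43.3 TPM in noncystic males, ahead of Kifap3 at 36.7 TPM and Kif3a at 18.1 TPM, with Kif3c at 5.81 TPM. The mouse-to-mouse spread was small for most members: the coefficient of variation of CPM, taken as its median over the 6 groups, was under 20% for 35 of 37 genes and ran from 5.52% for Ift22 to 30.3% for Kif17.

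**Figure D1:**
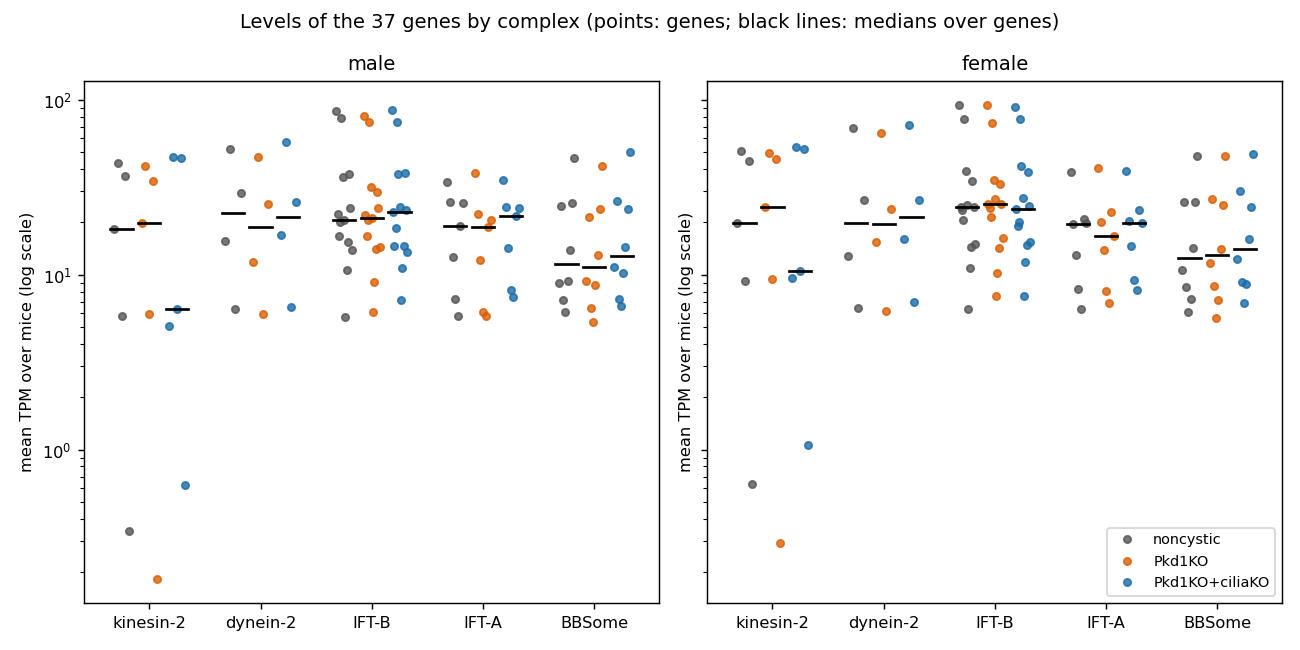
Mean TPM over mice (log scale) of each member gene by complex, with males on the left and females on the right, 1 point for each gene and genotype, and black lines for medians over genes. Kif17 is the lowest kinesin-2 point in every group (0.343 TPM in noncystic males), and the IFT-B median in males is 20.5, 21.0 and 22.7 TPM in noncystic, Pkd1KO and Pkd1KO+ciliaKO mice.

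Kif3a, the targeted gene (chromosome 11, bases 53567379 to 53601967 on GRCm38), was read first as a check of the labels. In males it ran from 13.8 to 25.5 CPM (median 22.5) in noncystic mice, from 21.6 to 29.2 (median 23.8) in Pkd1KO mice and from 4.90 to 7.45 (median 5.59) in Pkd1KO+ciliaKO mice. Every male Pkd1KO+ciliaKO library was below every other male library, a separation seen for 1.11% of all tested genes against Pkd1KO and 1.06% against noncystic mice. The mean of the Pkd1KO+ciliaKO males was 23.6% of the Pkd1KO mean, and the log2 fold change was -2.08 ± 0.09 (SE, n = 9 and 7, adjusted p = 3.2e-10 from the quasi-likelihood test of edgeR, Benjamini-Hochberg adjusted over all tested genes, as for every adjusted p here).

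In females, Kif3a ran from 23.7 to 28.3 CPM (median 26.5) in Pkd1KO mice. The library labelled noncystic replicate 5 held 6.69 CPM, while the 6 others of its group held 23.2 to 25.3. The library labelled Pkd1KO+ciliaKO replicate 6 held 20.7 CPM, while the 5 others held 6.56 to 8.47. Each of these 2 libraries therefore lay with the other genotype for this gene. With all libraries as labelled, Kif3a was lower in Pkd1KO+ciliaKO than in Pkd1KO females by a log2 fold change of -1.44 ± 0.22 (adjusted p = 0.0012), and the difference from noncystic females was -1.16 ± 0.31 (adjusted p = 0.0605). Without the 2 libraries the mean was 28.5% of the Pkd1KO mean, and the log2 fold changes were -1.81 ± 0.08 against Pkd1KO and -1.70 ± 0.08 against noncystic (adjusted p = 1.2e-07 for the latter).

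Kif17 was the other kinesin-2 gene that differed, and it was higher in Pkd1KO+ciliaKO than in Pkd1KO mice. It was rare, with 12 to 226 fragments per library. In males it ran from 0.384 to 0.699 CPM (median 0.513) in noncystic, from 0.125 to 0.506 (median 0.278) in Pkd1KO and from 0.573 to 1.33 (median 0.848) in Pkd1KO+ciliaKO mice. All 9 Pkd1KO+ciliaKO males were above all 7 Pkd1KO males (1.11% of all tested genes) and overlapped the noncystic males. In females it ran from 0.540 to 1.43 CPM (median 0.840) in noncystic, from 0.25 to 0.547 (median 0.411) in Pkd1KO and from 0.777 to 1.86 (median 1.33) in Pkd1KO+ciliaKO mice. All 6 Pkd1KO+ciliaKO females were above all 8 Pkd1KO females (2.99% of all tested genes). The 2 libraries that went against their labels for Kif3a held the ends of their groups for Kif17 too, since the one labelled noncystic was the highest of its group at 1.43 CPM and the one labelled Pkd1KO+ciliaKO was the lowest at 0.777 CPM.

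Against Pkd1KO, Kif17 rose by a log2 fold change of 1.64 ± 0.30 in males (adjusted p = 0.0048) and 1.78 ± 0.22 in females (adjusted p = 0.00041). Against noncystic mice it rose by 0.76 ± 0.18 in males (adjusted p = 0.014, or 0.052 with the 3 genotypes in one fit), and its log2 fold change in females was 0.62 ± 0.24 (adjusted p = 0.16), or 0.89 ± 0.21 (adjusted p = 0.028) without the 2 libraries. Kif17 also fell by 1.15 ± 0.24 on the log2 scale in Pkd1KO against noncystic females (adjusted p = 0.011), with -0.88 ± 0.28 in males (adjusted p = 0.076). DESeq2 and limma voom with quality weights called this fall in males too. The medians thus lay in the order Pkd1KO, noncystic, Pkd1KO+ciliaKO in both sexes. The summed CPM of the 6 thick ascending limb markers (Umod, Slc12a1, Egf, Cldn16, Cldn10, Ppp1r1a) was lowest in Pkd1KO as well, with medians of 4192, 2427 and 4113 in noncystic, Pkd1KO and Pkd1KO+ciliaKO males (ranges 3352 to 6154, 2322 to 4074 and 2767 to 5096) and 4556, 4128 and 5378 in females (ranges 4181 to 5806, 3198 to 5340 and 4507 to 6104). The 6 intercalated cell markers had the order of Kif17 in both sexes, with summed medians of 421, 353 and 460 CPM in noncystic, Pkd1KO and Pkd1KO+ciliaKO males (ranges 395 to 478, 286 to 442 and 336 to 555) and 561, 450 and 595 CPM in females (ranges 396 to 723, 422 to 626 and 485 to 620). The 5 distal convoluted tubule markers were also lowest in Pkd1KO, with medians of 1410, 1190 and 1371 CPM in males (ranges 1097 to 2346, 642 to 1468 and 1039 to 1767) and 1804, 1435 and 1574 CPM in females (ranges 1223 to 2226, 1288 to 1459 and 1391 to 2092). The 6 principal cell markers had their lowest summed medians in noncystic mice instead. These were 386, 437 and 452 CPM in noncystic, Pkd1KO and Pkd1KO+ciliaKO males (ranges 326 to 566, 261 to 626 and 291 to 734). In females they were 514, 607 and 688 CPM (ranges 435 to 672, 449 to 1045 and 476 to 1194). The proximal tubule sum was lowest in Pkd1KO+ciliaKO mice of both sexes (values below). No marker of these lists was at 0 in a whole group. Their part in the Kif17 result was not tested. Of the exon bases of Kif17, 74 are shared with Sh2d5 on the same strand.

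By edgeR no partner of Kif3a was called in any comparison of genotypes. Kif3b, which forms the motor with Kif3a, had medians of 82.1, 78.7 and 82.7 CPM in noncystic, Pkd1KO and Pkd1KO+ciliaKO males and 84.8, 84.1 and 86.0 CPM in females. Its log2 fold change between Pkd1KO+ciliaKO and Pkd1KO was 0.04 in males and 0.02 in females, with 95% intervals inside ±0.5 in both. Kif3c had medians of 13.3, 13.5 and 14.1 CPM in males and 20.2, 21.0 and 21.7 CPM in females, with log2 fold changes of -0.01 and 0.05. These values are uncertain, since 40.7% of its exon bases are shared with genes on the opposite strand and the strand setting of the counting is not given in the sources used here.

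Kifap3, which joins the motor to cargo, had medians of 48.1, 46.0 and 53.7 CPM in males and 55.6, 55.2 and 59.0 CPM in females. Its log2 fold change against Pkd1KO was 0.28 in males (adjusted p = 0.14) and 0.09 in females (adjusted p = 0.29). In males limma voom with quality weights called it higher (adjusted p = 0.041). The highest male Pkd1KO+ciliaKO libraries were replicates 8 and 6, at 82.4 and 66.8 CPM, which are among the 4 libraries nearest to the females, and the 7 others held 46.6 to 57.4 CPM. Groups overlapped in both sexes for all 3 partner genes.

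**Figure D2:**
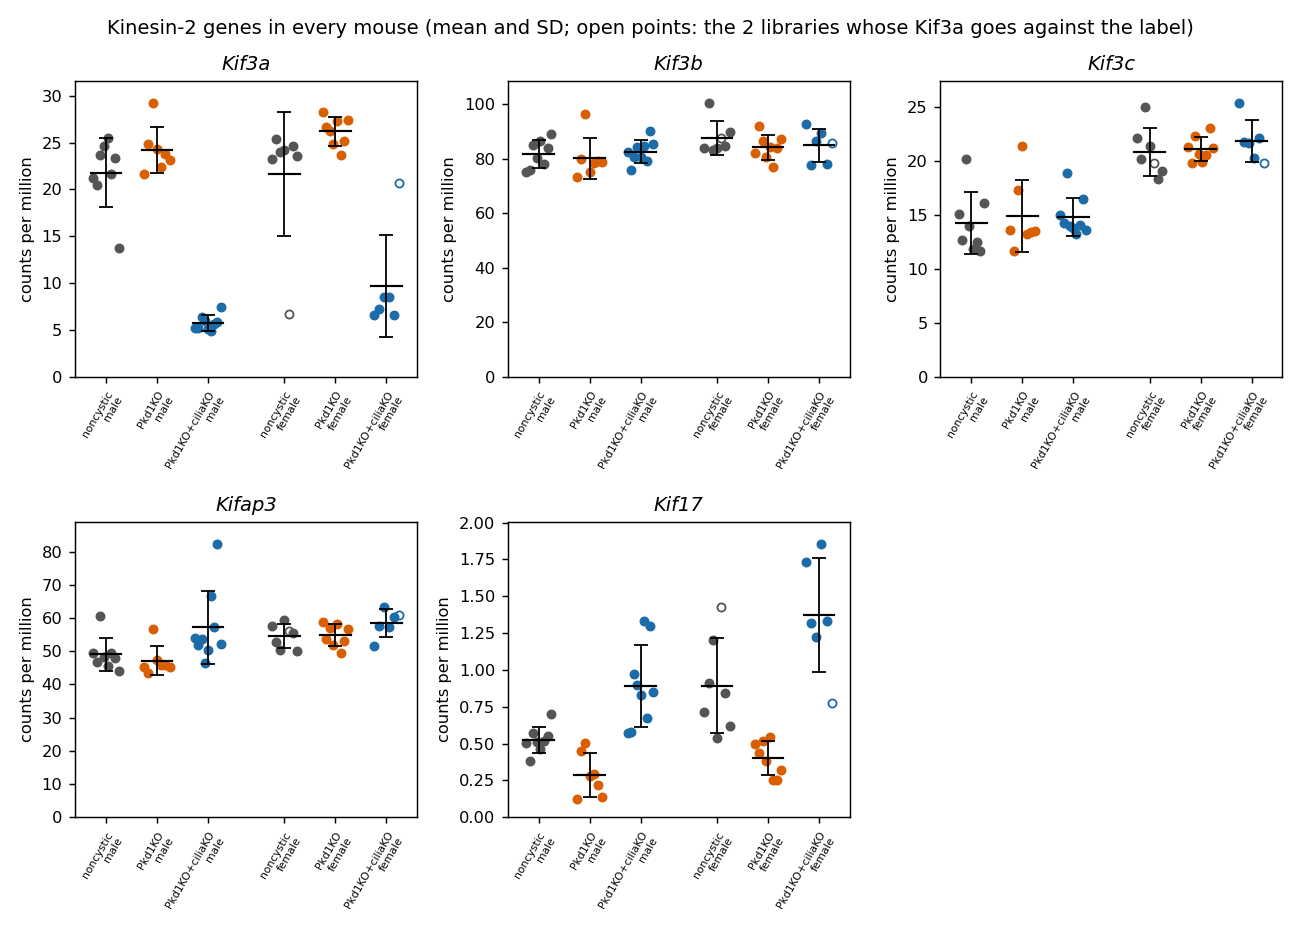
CPM of the 5 kinesin-2 genes in each of 45 mice, by sex and genotype, with the mean and SD in black and open points for the 2 female libraries whose Kif3a goes against the label. Kif3a falls to 4.90 to 7.45 CPM in Pkd1KO+ciliaKO males, Kif17 lies above every Pkd1KO library in Pkd1KO+ciliaKO mice, and Kif3b, Kif3c and Kifap3 overlap between genotypes.

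Over the whole set, 4 of 37 members were called between Pkd1KO+ciliaKO and Pkd1KO in males (adjusted p at most 0.05), where 3.77% of all tested genes were called, and 4 of 37 in females, where 11.7% were called. Without the libraries doubted above the counts were again 4 of 37 in each sex, beside 3.93% and 10.4% of all genes. Leaving out Kif3a itself, 3 of 36 were called in each sex. Outside kinesin-2 every called member was an IFT-B gene, and each was lower: Ift27 and Ift46 in males, Ift27 and Ift22 in females. The median log2 fold change of the 36 genes was 0.07 in males and -0.03 in females, beside -0.01 and 0.01 over all tested genes. The 95% interval of the log2 fold change lay within ±0.5 for 34 of 37 members in each sex. The exceptions were Kif3a and Kif17 in both sexes, Dync2h1 in males and Ift27 in females.

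Ift27 encodes a Rab-like small GTPase of the IFT-B complex that is known to act in taking the BBSome and its cargo out of the cilium, and it was lower in Pkd1KO+ciliaKO mice in all 4 comparisons with the other genotypes. It lies on chromosome 15, bases 78159463 to 78174107. In males it ran from 14.3 to 18.02 CPM (median 15.9) in noncystic, from 14.5 to 18.6 (median 15.7) in Pkd1KO and from 10.8 to 15.5 (median 12.8) in Pkd1KO+ciliaKO mice, and only Pkd1KO+ciliaKO replicates 2 and 6 reached the range of the other groups. In females it ran from 17.0 to 26.1 CPM (median 20.6), from 18.7 to 23.8 (median 20.3) and from 13.5 to 17.6 (median 14.8) in the same order. Every female Pkd1KO+ciliaKO library was below every Pkd1KO library, which held for 2.99% of all tested genes in either direction.

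Against Pkd1KO, Ift27 fell by 0.32 ± 0.08 on the log2 scale in males (adjusted p = 0.033) and by 0.45 ± 0.08 in females (adjusted p = 0.0027). Against noncystic mice it fell by 0.30 ± 0.07 in males (adjusted p = 0.017) and by 0.43 ± 0.10 in females (adjusted p = 0.036). Without the 2 female libraries the log2 fold changes in females were -0.49 against both groups. The level of Ift27 in Pkd1KO mice was close to that of noncystic mice, with log2 fold changes of 0.02 ± 0.07 in males and 0.03 ± 0.08 in females. The call against Pkd1KO in males was lost, at an adjusted p of at most 0.0605, without Pkd1KO replicate 1, 2 or 4 or without Pkd1KO+ciliaKO replicate 1, 3, 5, 7 or 8, each left out alone. The call against noncystic females was lost, at an adjusted p of at most 0.0861, without noncystic replicate 2, 3, 4 or 6 or Pkd1KO+ciliaKO replicate 2, 3, 4 or 5. Hspb11 (IFT25), the partner of IFT27, was looked at after these values were seen and had log2 fold changes against Pkd1KO of 0.02 ± 0.10 in males and -0.16 ± 0.10 in females (adjusted p = 0.94 and 0.34).

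Ift46, which encodes a subunit of the IFT-B core, lies on chromosome 9, bases 44767908 to 44793447. It ran from 37.8 to 48.9 CPM (median 43.3) in noncystic, from 38.8 to 53.8 (median 45.8) in Pkd1KO and from 34.6 to 41.8 (median 37.4) in Pkd1KO+ciliaKO males. It fell by 0.29 ± 0.07 on the log2 scale against Pkd1KO (adjusted p = 0.021) and by 0.21 ± 0.06 against noncystic males (adjusted p = 0.025), with overlapping groups. In females the medians were 41.2, 41.5 and 36.4 CPM, and the log2 fold changes of -0.18 ± 0.07 against Pkd1KO and -0.16 ± 0.06 against noncystic did not pass the test (adjusted p = 0.085 and 0.16).

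Ift22, another Rab-like GTPase of IFT-B, lies on chromosome 5, bases 136908150 to 136915404. It ran from 25.4 to 30.4 CPM (median 26.3) in noncystic, from 24.5 to 29.1 (median 27.8) in Pkd1KO and from 22.8 to 25.1 (median 24.1) in Pkd1KO+ciliaKO females. Its log2 fold change was -0.19 ± 0.05 against Pkd1KO (adjusted p = 0.031) and -0.16 ± 0.05 against noncystic females (adjusted p = 0.099), and all 6 Pkd1KO+ciliaKO females were below all 7 noncystic females (1.73% of all tested genes). The call against Pkd1KO was lost, at an adjusted p of at most 0.0748, without Pkd1KO replicate 1, 2, 5, 7 or 8 or Pkd1KO+ciliaKO replicate 1, 3, 4 or 5, each left out alone. In males the medians were 26.4, 27.7 and 26.2 CPM, with a log2 fold change against Pkd1KO of -0.08 ± 0.05 (adjusted p = 0.46).

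**Figure D3:**
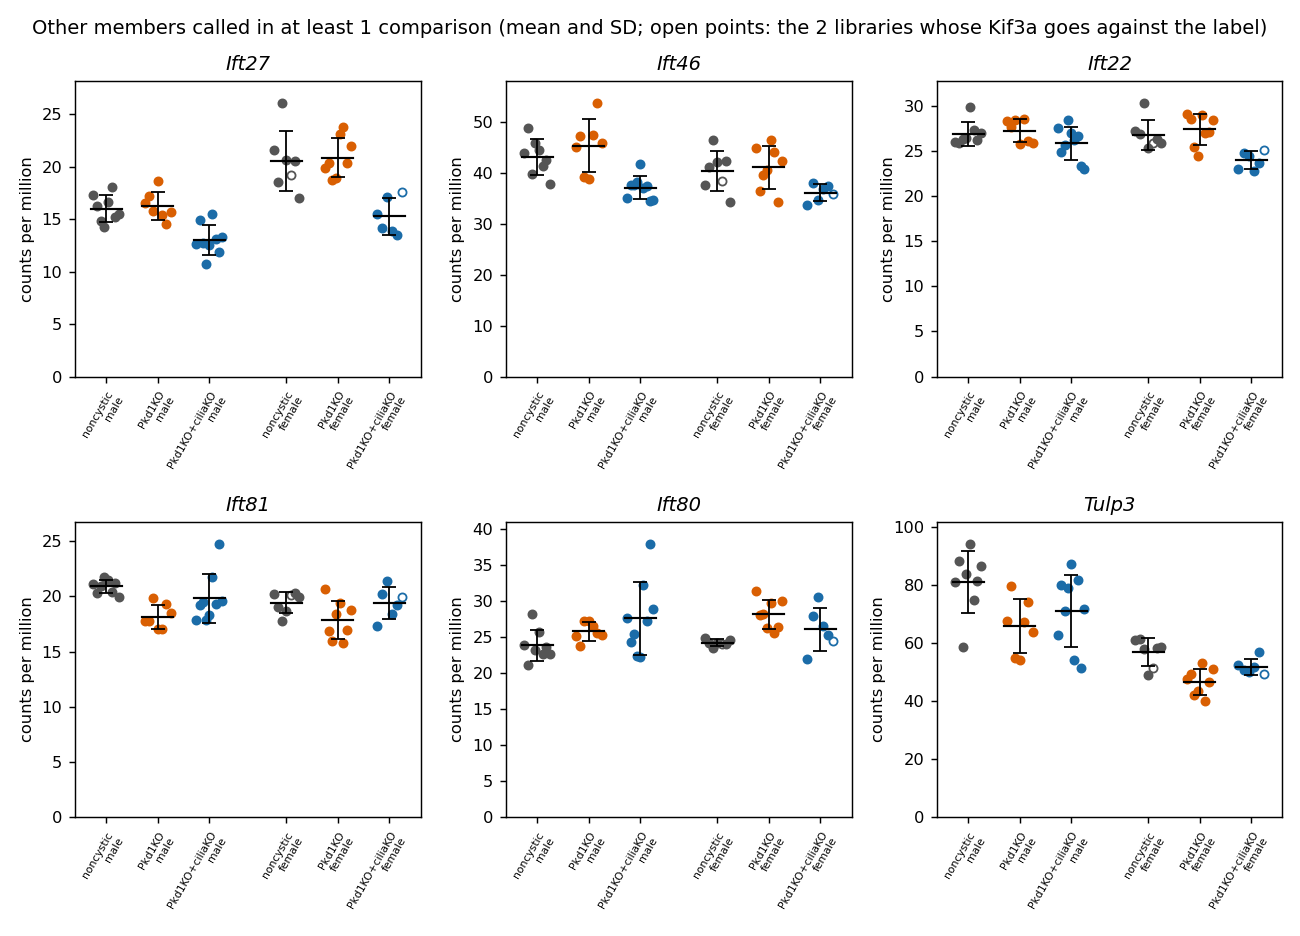
CPM in each mouse of the 6 members outside kinesin-2 that were called in at least 1 of the 6 comparisons, with the mean and SD in black and open points for the 2 female libraries whose Kif3a goes against the label. Ift27 medians drop to 12.8 CPM in Pkd1KO+ciliaKO males and 14.8 CPM in Pkd1KO+ciliaKO females, and for the other 5 genes every pair of genotypes within a sex overlaps except Ift22 (noncystic and Pkd1KO+ciliaKO females), Ift80 (noncystic and Pkd1KO females) and Ift81 (noncystic and Pkd1KO males).

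The remaining IFT-B genes did not pass the test against Pkd1KO, though DESeq2 called Cluap1 and limma voom with quality weights called Ift57 in males, and voom called Traf3ip1 in females. The log2 fold changes of the 13 IFT-B genes ran from -0.32 to 0.20 in males and from -0.45 to 0.17 in females, with 4 and 6 of 13 at an unadjusted p under 0.05, beside 19.7% and 27.7% of all tested genes. Cluap1 (IFT38), whose gene shares 40.8% of its exon bases with other genes and is therefore uncertain, had medians of 10.6, 10.8 and 9.70 CPM in noncystic, Pkd1KO and Pkd1KO+ciliaKO males and 10.4, 11.2 and 9.88 CPM in females, with a log2 fold change of -0.21 ± 0.08 in males (adjusted p = 0.13). Ift57 had medians of 34.3, 30.2 and 35.3 CPM in males and 34.1, 29.4 and 33.6 CPM in females, with 0.17 ± 0.06 in females (adjusted p = 0.091). Its level was lowest in Pkd1KO mice of both sexes. Ift20 had medians of 43.6, 41.9 and 43.3 CPM in males and 44.4, 42.6 and 39.3 CPM in females, with -0.13 ± 0.05 in females (adjusted p = 0.10).

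No dynein-2, IFT-A or BBSome gene was called against Pkd1KO in either sex. The unadjusted p was under 0.05 for 1 of 4 dynein-2 genes in males and 0 in females, for 2 of 7 IFT-A genes in males and 3 in females, and for 0 of 8 BBSome genes in both, beside 19.7% of all tested genes in males and 27.7% in females. DESeq2 called 0 of these 19 genes as well, and limma voom with quality weights called only Dync2li1, in males. The log2 fold changes ran from -0.09 to 0.32 in males and -0.04 to 0.07 in females for dynein-2, from -0.23 to 0.26 and -0.15 to 0.16 for IFT-A, and from -0.13 to 0.19 and -0.14 to 0.20 for the BBSome.

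Dync2li1, the light intermediate chain of dynein-2, came nearest to the threshold among the motor genes, with medians of 32.8, 29.7 and 33.2 CPM in noncystic, Pkd1KO and Pkd1KO+ciliaKO males and 37.5, 36.7 and 38.4 CPM in females, and a log2 fold change of 0.15 ± 0.05 in males (adjusted p = 0.12). Dync2h1, the dynein-2 heavy chain, spread widely between mice, from 58.3 to 144 CPM in Pkd1KO+ciliaKO males, and its interval in males ran past 0.5. Its highest Pkd1KO+ciliaKO males were replicates 6, 8 and 9, at 111, 144 and 117 CPM, and without the 4 male libraries its log2 fold change fell from 0.32 to 0.07, leaving 0.16 as the upper end for dynein-2. Among IFT-A genes Ift43 had medians of 18.9, 20.7 and 18.9 CPM in males and 19.3, 19.8 and 18.1 CPM in females, with -0.23 ± 0.08 in males (adjusted p = 0.11).

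**Figure D4:**
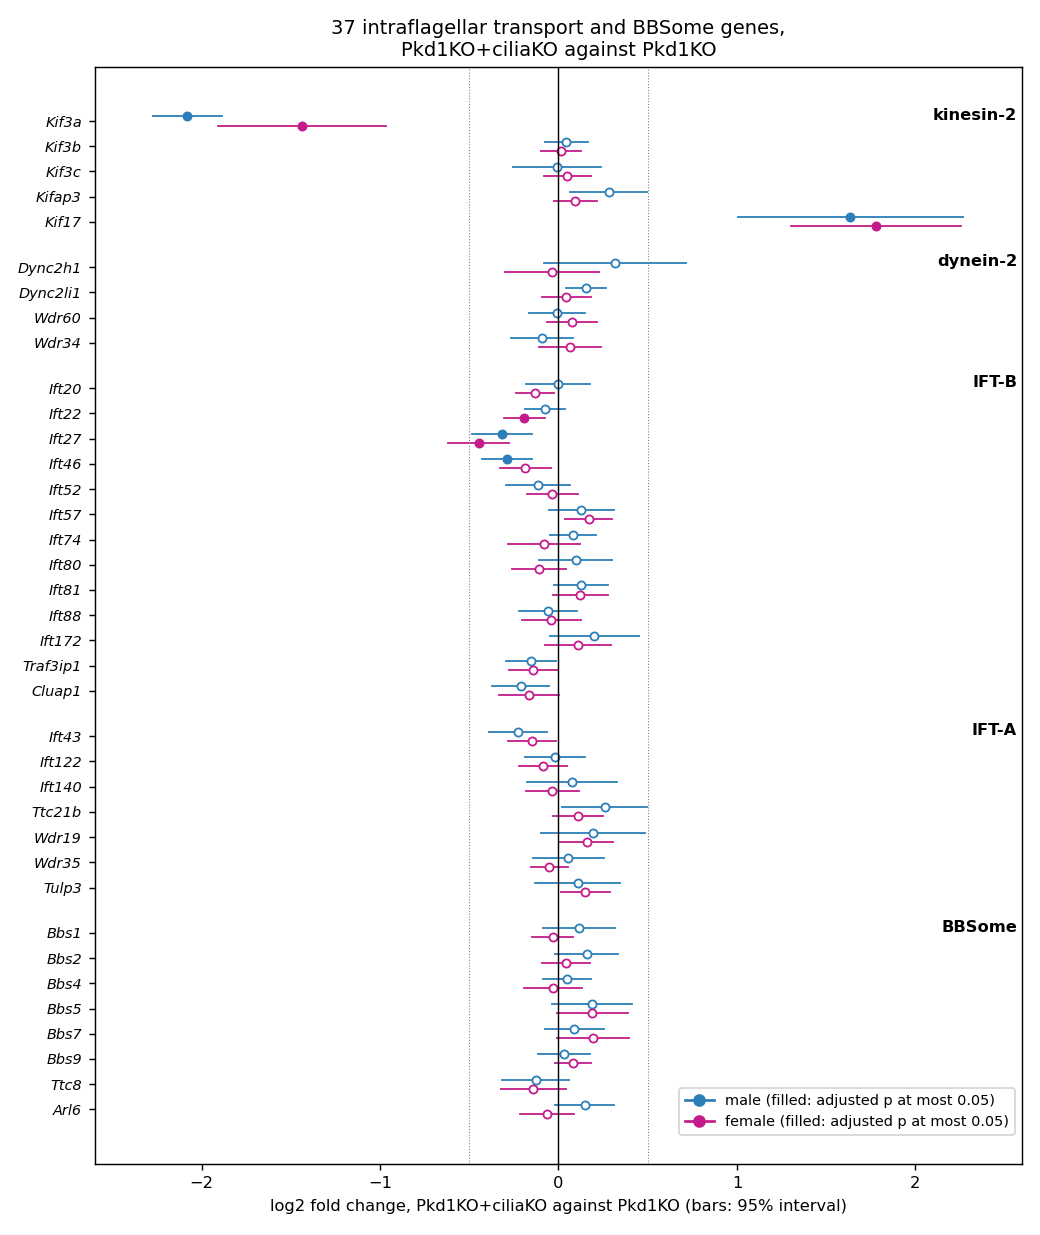
Log2 fold change of each of the 37 genes in Pkd1KO+ciliaKO against Pkd1KO mice with its 95% interval, males in blue and females in magenta, by complex, filled where the adjusted p is at most 0.05 and with dotted lines at ±0.5. Kif3a (-2.08 and -1.44) and Kif17 (1.64 and 1.78) stand far from 0, and 34 of 37 intervals in each sex lie between the dotted lines.

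Against noncystic mice, from which Pkd1KO+ciliaKO mice differ at both genes, 4 of 37 members were called in males, where 8.89% of all tested genes were called, and 1 of 37 in females, where 2.54% were called. The males' genes were Kif3a, Kif17, Ift27 and Ift46, with values given above. In females it was Ift27. Without the 2 female libraries, 3 of 37 were called in females (Kif3a, Kif17 and Ift27), beside 5.8% of all tested genes. Without the 4 male libraries, 6 of 37 were called in males, beside 14% of all genes, the additions being Wdr34 (-0.25 ± 0.07, adjusted p = 0.019) and Ift81 (-0.16 ± 0.05, adjusted p = 0.036). These comparisons share the Pkd1KO+ciliaKO libraries with those against Pkd1KO and are not independent of them.

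Wdr34, a dynein-2 intermediate chain, had medians of 23.2, 21.0 and 19.3 CPM in noncystic, Pkd1KO and Pkd1KO+ciliaKO males and 19.1, 17.1 and 18.3 CPM in females, with a log2 fold change of -0.27 ± 0.08 against noncystic males (adjusted p = 0.055). Ift122, an IFT-A core subunit, had medians of 93.4, 78.3 and 76.9 CPM in males and 60.4, 62.3 and 59.5 CPM in females, with -0.20 ± 0.08 in males (adjusted p = 0.11). Wdr34 passed in 6 of 8 alternatives, DESeq2 (adjusted p = 0.021) and voom (adjusted p = 0.022) among them, and Ift122 passed in voom alone (adjusted p = 0.0049). In females, Wdr19 (IFT144), also of IFT-A, had medians of 21.9, 23.6 and 25.9 CPM, with 0.23 ± 0.07 (adjusted p = 0.077), and 20.9, 22.4 and 22.4 CPM in males. Ift20 had -0.17 ± 0.05 in females (adjusted p = 0.087). DESeq2 and voom each called Wdr19 and Ift20 against noncystic females, and DESeq2 also called Ift22.

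Pkd1KO against noncystic mice, that is Pkd1fl/fl against Pkd1fl/+ with Cre active in both, gave 4 calls among these genes over both sexes. In males 1 of 37 members was called, where 6.3% of all tested genes were called, and in females 3 of 37, where 3.34% were called. Without the doubted libraries the counts were 1 (Tulp3) and 3, beside 5.72% and 3.49%. At an unadjusted p under 0.05 the counts were 12 of 37 in males and 5 of 37 in females, beside 22.1% and 16.4% of all genes, and voom called 7 and 3. The genes called by edgeR were Ift81 in males and Kif17, Ift80 and Tulp3 in females. In males voom added Kif17, Tulp3, Ttc21b, Ift57, Ift122 and Ift172, and DESeq2 added Kif17. In females DESeq2 added Ift57. The median log2 fold change of all 37 was -0.06 in males and 0.0010 in females. Kif3a itself, intact in both genotypes, had log2 fold changes of 0.15 ± 0.11 in males and 0.28 ± 0.19 in females (adjusted p = 0.43 and 0.52), and 0.12 ± 0.05 in females without the library labelled noncystic replicate 5 (adjusted p = 0.23).

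Ift81, which with IFT74 binds tubulin cargo, lies on chromosome 5, bases 122550204 to 122614518, and ran from 19.98 to 21.8 CPM (median 21.0) in noncystic males and from 17.0 to 19.9 (median 17.8) in Pkd1KO males, with no overlap. Groups did not overlap in this comparison for 2.11% of all tested genes. It fell by 0.20 ± 0.05 on the log2 scale in Pkd1KO males (adjusted p = 0.022), but not past the threshold without Pkd1KO replicate 4 (-0.18, adjusted p = 0.070), without Pkd1KO replicate 5 (-0.19, adjusted p = 0.052) or without the 4 male libraries (-0.19, adjusted p = 0.063). It had a median of 19.3 CPM in Pkd1KO+ciliaKO males, and in females its medians were 19.9, 17.7 and 19.6 CPM, with -0.12 ± 0.07 in Pkd1KO (adjusted p = 0.39).

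Ift80, a peripheral IFT-B subunit, lies on chromosome 3, bases 68892499 to 69004570. It ran from 23.4 to 24.9 CPM (median 24.2) in noncystic females and from 25.6 to 31.3 (median 28.1) in Pkd1KO females, with no overlap, which held for 1.06% of all tested genes. It rose by 0.22 ± 0.05 on the log2 scale in Pkd1KO females (adjusted p = 0.020), but not past the threshold without Pkd1KO replicate 8 (0.20, adjusted p = 0.052) or with the 3 genotypes in one fit (0.21, adjusted p = 0.051). Pkd1KO+ciliaKO females had a median of 25.8 CPM, and the male medians were 23.3, 25.6 and 27.2 CPM, with 0.11 ± 0.06 in Pkd1KO males (adjusted p = 0.31).

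Tulp3, which links IFT-A to membrane receptors, lies on chromosome 6, bases 128321161 to 128355851. It ran from 48.9 to 61.4 CPM (median 58.2) in noncystic and from 39.9 to 52.9 (median 47.1) in Pkd1KO females, and it fell by 0.28 ± 0.07 on the log2 scale (adjusted p = 0.026). This call was lost without noncystic replicate 1, 2, 6 or 7 or Pkd1KO replicate 1 or 7, each left out alone, at an adjusted p of at most 0.0641. In males the medians were 82.5 and 67.0 CPM, with -0.30 ± 0.10 (adjusted p = 0.084), and -0.31 ± 0.08 (adjusted p = 0.031) without the 4 male libraries. In Pkd1KO+ciliaKO mice the medians were 71.8 CPM in males and 51.1 CPM in females.

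Of the members that came nearest without passing, Ttc21b (IFT139), an IFT-A subunit, had medians of 22.7, 18.7 and 20.7 CPM in males and 22.7, 22.9 and 24.7 CPM in females, with -0.22 ± 0.07 in Pkd1KO males (adjusted p = 0.089). Ift57 had -0.19 ± 0.06 and Wdr34 -0.20 ± 0.08 in Pkd1KO females (adjusted p = 0.081 and 0.20). Bbs1, a BBSome subunit, had medians of 22.1, 23.9 and 24.9 CPM in males and 24.4, 26.5 and 26.7 CPM in females, with 0.11 ± 0.06 in Pkd1KO females (adjusted p = 0.33). Ift140, the one member on the chromosome of Pkd1 within 5 Mb of it, at 0.466 Mb, had log2 fold changes of -0.01 in males and 0.08 in females.

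**Figure D5:**
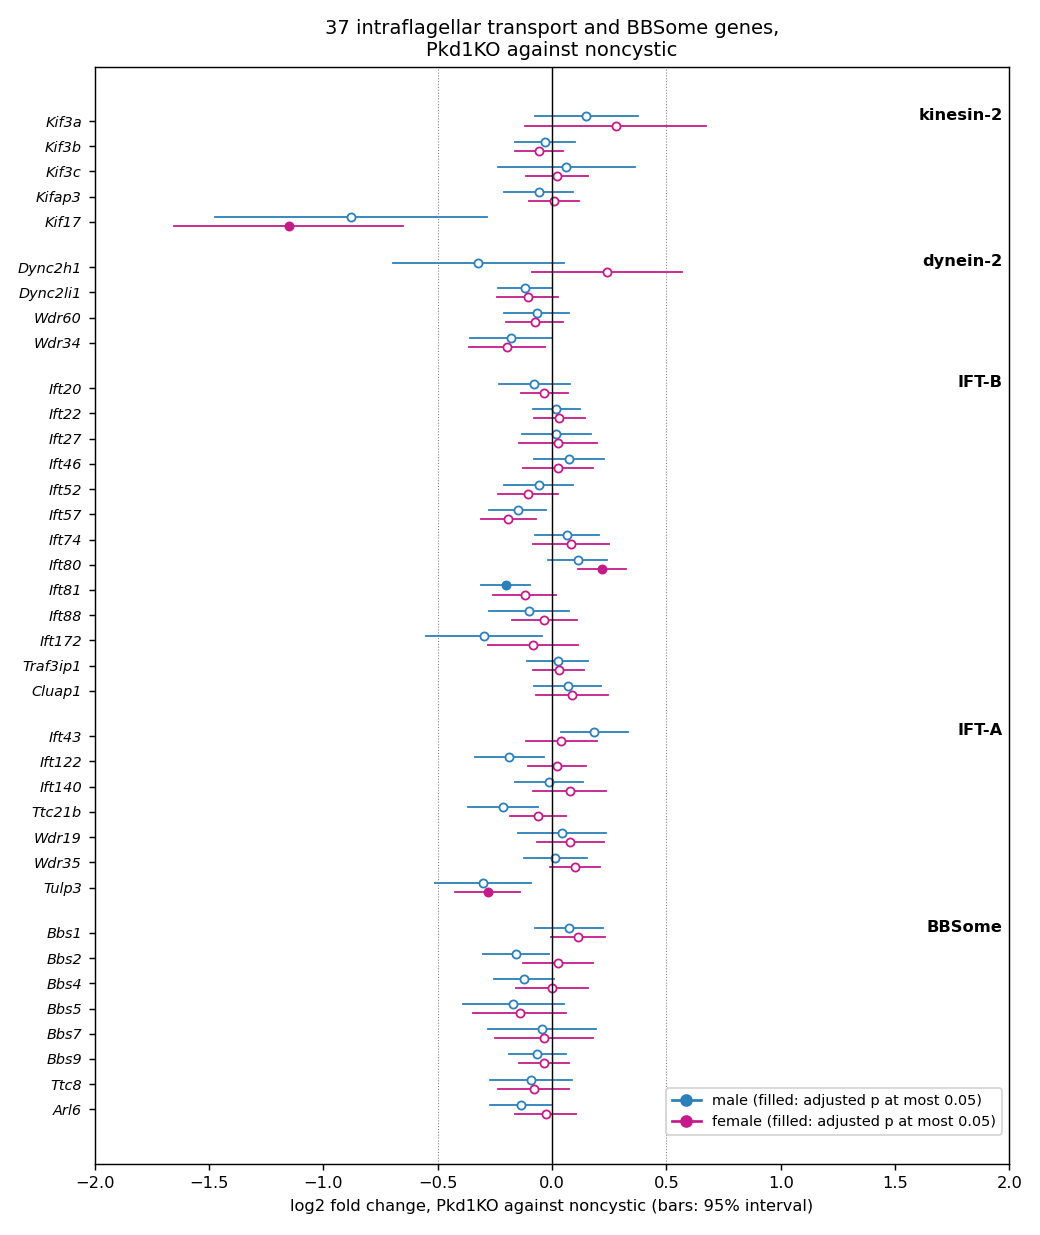
Log2 fold change of each of the 37 genes in Pkd1KO against noncystic mice with its 95% interval, drawn as in the plot of Pkd1KO+ciliaKO against Pkd1KO but on a narrower axis. Ift81 in males (-0.20) and Kif17, Ift80 and Tulp3 in females (-1.15, 0.22 and -0.28) are the filled points, and Kif3a lies at 0.15 and 0.28.

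The sexes were set side by side and their difference was tested as an interaction over 15828 genes. No member's fold differed between males and females by edgeR in any of the 3 comparisons, where 0.221%, 0.0316% and 0.0126% of all genes did (Pkd1KO+ciliaKO against Pkd1KO, Pkd1KO+ciliaKO against noncystic and Pkd1KO against noncystic). At an unadjusted p under 0.05 the counts were 2 (Kif3a and Arl6), 1 (Kif3a) and 2 (Ift122 and Dync2h1) of 37, beside 7.94%, 5.49% and 8.08% of all genes, and limma voom with quality weights called 0, 1 (Ift122) and 0. Across the 36 genes other than Kif3a, the male and female log2 fold changes of Pkd1KO+ciliaKO against Pkd1KO had a Pearson r of 0.94, or 0.71 over 35 genes without Kif17, and r was 0.56 over all genes. This is a description across genes, which are not independent. They had the same sign for 25 of 36, beside 69.0% of all genes.

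Around the 37 genes, 52 further genes of the pathway were read from fixed lists: 11 other IFT and BBSome subunits, 7 dynein chains shared with dynein-2, 11 kinases and GTPases of intraflagellar transport, 9 ciliary transcription factors and 14 other kinesins. Between Pkd1KO+ciliaKO and Pkd1KO, 1 of 50 tested was higher and 0 lower in males, and 2 of 51 were higher and 4 lower in females, beside 3.77% and 11.7% of all tested genes, so that the share called in females (11.8%) was that of the series. In males the gene was Kif21a, a kinesin that acts on microtubule growth (0.29 ± 0.07, adjusted p = 0.020). In females Kif5c, a conventional kinesin (0.68 ± 0.12, adjusted p = 0.0025), and Bbs10, a chaperonin-like gene of BBSome assembly (0.44 ± 0.14, adjusted p = 0.049), were higher, but Bbs10 did not pass without the 2 female libraries (0.39 ± 0.14, adjusted p = 0.10).

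Lower in females were Dynll1, a dynein light chain (-0.67 ± 0.10, adjusted p = 0.00083), Rab8a, a GTPase of traffic to the cilium (-0.20 ± 0.05, adjusted p = 0.019), Tub, a relative of Tulp3 (-1.86 ± 0.42, adjusted p = 0.0105), and Gmnc, a regulator of multiciliated cells (-1.43 ± 0.43, adjusted p = 0.040). Without the 2 female libraries Gmnc did not pass (-1.41 ± 0.47, adjusted p = 0.068). Dynll1 also rose in Pkd1KO against noncystic mice, by 0.47 ± 0.12 in males and 0.52 ± 0.09 in females (adjusted p = 0.028 and 0.0020), though not past the threshold in males without the 4 libraries (0.42 ± 0.12, adjusted p = 0.059). Kif5a, another conventional kinesin, fell in the same comparison by 0.80 ± 0.20 in males and 0.67 ± 0.16 in females (adjusted p = 0.023 and 0.027), and did not pass in females without the 2 libraries (-0.60 ± 0.16, adjusted p = 0.052). Other pathway genes called were Kif5c, which fell by 0.43 in Pkd1KO against noncystic females (-0.41, adjusted p = 0.078, without the 2 libraries), and Kif5a (-0.65), Dynll2 (-0.28) and Foxj1 (0.93) in Pkd1KO+ciliaKO against noncystic males.

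Markers of multiciliated cells, which use the same transport genes, summed to little in every group: 7 of 8 listed genes matched the tables (all but Dnai1), none was at 0 in a whole group, and their summed level had medians of 11.4, 10.7 and 11.4 CPM in noncystic, Pkd1KO and Pkd1KO+ciliaKO males (ranges 10.3 to 12.3, 9.38 to 13.4 and 10.7 to 14.004) and 11.1, 10.2 and 12.1 CPM in females (ranges 10.1 to 13.3, 7.61 to 11.5 and 10.1 to 13.8). Of them, Foxj1, Ccdc39 and Dnah11 were called higher in Pkd1KO+ciliaKO against noncystic males, and Dnah11 (0.51) against Pkd1KO in females. Without the 4 male libraries, Foxj1 (0.99) and Ccdc39 (0.69) were still higher against noncystic males. In that fit Dnah11 was not called and Dnah9 was called lower (-0.80), so these markers did not move together. The proximal tubule sum had medians of 16463, 12801 and 11982 CPM in males and 12155, 11776 and 10204 CPM in females, and Slc5a2 had log2 fold changes against Pkd1KO of -4.20 in males and -2.30 in females, or -4.41 and -4.18 without the 4 male and the 2 female libraries. Slc5a2 was the only marker of the proximal tubule list called against Pkd1KO in males. In females Hnf4a (-0.35) was the only other one called, so the fold of Slc5a2 does not stand for the list. The part of these markers in the members' results was not tested.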

How the data were processed

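Ribosome-bound RNA from kidneys of 45 mice (TRAP, rRNA-depleted libraries, 150-base paired reads) was analysed from 2 kinds of deposited table. Gene counts were made by the authors with fastp 0.20.0, STAR 2.7.9 and featureCounts 2.0.0 on GRCm38 with GENCODE annotation, with no normalisation. Strand and multimapping settings are not given in the sources used here. The deposited TPM tables hold protein-coding genes past the authors' filter and were used only for levels between genes. Symbols came from a reference table that matched 55141 of 55401 identifiers.

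Tests ran on protein-coding genes that reached 6 counts in 20% or more of the mice of a sex. They were run for each sex and pair of genotypes, with edgeR 4.0.16 (R 4.3.3), TMM factors and the quasi-likelihood test, with Benjamini-Hochberg adjustment over all tested genes. The study used DESeq2, and here DESeq2 1.42.0 and limma 3.58.1 (voom with quality weights) were alternatives, besides other scaling, filters, gene sets, a replicate block and samples left out. The code was tested on simulated counts. The members and lists were chosen with earlier results of these data known. All 37 members are accounted for: values in every group are given for kinesin-2, for every called member and for the 3 nearest to the threshold in each comparison. Promoters came from RefSeq (33 of 37 matched), and 19 and 26 bases of the Kif17 and Ift27 windows lie in annotated exons. Labels name each library a separate mouse, and no pair of libraries in a group was alike enough to be a repeat of the other (chi-square over its degrees of freedom at least 53.6). No clear pairing of mice by replicate number was seen, and the labels give none.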

Additional observations from a re-analysis of the deposited data

Results flagged for a closer look

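In 222 combinations of a member and a group, 24 held a mouse far from the others of its group by Dixon's criterion, which flags about 1 in 20 by chance. For Kif3a these were the library labelled noncystic female replicate 5 (6.69 CPM) and the library labelled Pkd1KO+ciliaKO female replicate 6 (20.7), with noncystic male replicate 8 (13.8, lowest) and Pkd1KO male replicate 3 (29.2, highest). Pkd1KO male replicate 3 was also highest for Kif3b (96.5 CPM), Kifap3 (56.8) and Bbs1 (29.6), and noncystic male replicate 3 for Kifap3 (60.8), Wdr19 (29.5) and Bbs1 (26.9). Pkd1KO male replicate 2 was highest for Dync2h1 (88.3) and Ift122 (93.4), and replicate 4 was lowest for Traf3ip1 (24.96). Noncystic male replicate 5 was highest for Ift22 (29.9), and Pkd1KO+ciliaKO male replicate 8 for Ift172 (117.6).

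In females, Pkd1KO+ciliaKO replicate 1 was lowest for Ift88 (15.7 CPM), Ift122 (51.1) and Ttc21b (19.8), and replicate 5 was lowest for Wdr60 (14.3) and Wdr34 (14.4). Noncystic replicate 3 was highest for Wdr34 (23.7) and Ift22 (30.4), replicate 2 for Kif3b (100.6) and replicate 6 for Ift52 (76.8).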

How the results depend on the processing

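Against Pkd1KO, the count of 4 called members stayed at 3 to 5 in both sexes under DESeq2, RLE size factors, no filter on low counts, all annotated genes, 3 genotypes in one fit and without the libraries named, except that voom called 7 in males. With the replicate block it was 2 in males. Pkd1KO+ciliaKO against noncystic gave 7 with voom in males, and in females 5 with DESeq2, 4 with voom, 2 with 3 genotypes in one fit and 3 without the 2 libraries, against 1. Pkd1KO against noncystic males gave 2 with DESeq2 and with 3 genotypes in one fit, 7 with voom, and 0 with all annotated genes and with the replicate block, against 1, and females gave 1 with the block, against 3. The interaction count for Pkd1KO+ciliaKO against noncystic was 1 with voom, against 0. Leaving out 1 mouse at a time gave 3 to 4 calls against Pkd1KO in both sexes, 4 to 5 and 0 to 2 for Pkd1KO+ciliaKO against noncystic in males and females, and 0 to 3 and 2 to 3 for Pkd1KO against noncystic.

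The labels give no pairing by replicate number, and no clear pairing was seen (correlations of deviations between same-numbered mice -0.27 to 0.26). With the replicate block Kif3a and Kif17 kept their calls against Pkd1KO, while Ift27 in males (adjusted p = 0.17), Ift46 in males (0.11) and Ift22 in females (0.20) did not, nor did Ift46 against noncystic males (0.081) or, in Pkd1KO against noncystic mice, Ift81 in males (0.10) and Ift80 (0.10) and Tulp3 (0.055) in females. Only log2 fold changes near 0 changed sign: Kif3c against Pkd1KO in males (0.12 with voom, 0.11 without the 4 libraries), Kif3b against noncystic in males (-0.0081 without the 4 libraries) and against Pkd1KO in females (-0.012 with voom), and Kifap3 in Pkd1KO against noncystic females (-0.0030 with 3 genotypes in one fit, -0.0067 with the block). With 1 mouse left out, Kif3c ran from -0.061 to 0.0996 against Pkd1KO in males and, in Pkd1KO against noncystic mice, from -0.044 to 0.154 in males and -0.0079 to 0.069 in females; Kif3b ran from -0.0061 to 0.035 against noncystic in males and -0.0093 to 0.040 against Pkd1KO in females, and Kifap3 from -0.011 to 0.023 in Pkd1KO against noncystic females. The cause was not tested. Of 440 values for single genes outside these leave-outs, 397 kept direction and side of the threshold. Kif17, at 12 to 226 fragments, is limited most by depth.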
